A study of Mus musculus with 18 samples.

Results

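The 42 genes described here encode the constitutive proteasome, its activators and inhibitor, and the chaperones that assemble it, measured in neutrophils of mouse bone marrow. They were taken from the 53379 gene rows of the count table by symbol and level: protein-coding Psma, Psmb, Psmc, Psmd, Psme, Psmf and Psmg genes with a mean CPM (counts scaled to the library total) of at least 1 over all 18 libraries. The inducible subunits Psmb8, Psmb9 and Psmb10 were left out, and 0 genes fell in a window of distal chromosome 9 that the rule excludes. Of 50 protein-coding symbols that matched, 5 more were left out for low level: Psma8, Psmb11, Psmc3ip, Psmg2 and Psmg4. The lowest member was Psmg1 at 1.501 CPM and the highest gene under the limit was Psmg4 at 0.581 CPM. The mean level chose the members, so levels are given as a description.

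The members lie on 15 chromosomes and comprise 14 core genes (7 of the alpha ring and 7 of the beta ring), 17 cap genes, 5 chaperones, 4 activators, 1 inhibitor and Psme2b. Psme2b is a near-identical copy of Psme2, so reads may have been split between them and its values are uncertain.

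The proteasome is the protease that degrades proteins tagged with ubiquitin. Its core is a barrel of alpha and beta rings, in which Psmb5, Psmb6 and Psmb7 hold the chymotrypsin-like, caspase-like and trypsin-like active sites. The 19S cap, built of an ATPase ring, scaffold and ubiquitin receptor subunits and a lid, binds, deubiquitinates and unfolds the substrate. In immune cells Psmb8, Psmb9 and Psmb10 can replace the catalytic subunits Psmb5, Psmb6 and Psmb7, forming the immunoproteasome, which is known from interferon responses and antigen presentation. The factors NRF1 (Nfe2l1) and NRF2 (Nfe2l2) are known to drive transcription of proteasome genes through antioxidant response elements.

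The libraries came from neutrophils sorted by flow cytometry from mice 10 weeks old. They form 6 groups of 3: WT and CIS-/-, each unstimulated (lysed directly after the sort), or cultured with 100 ng/mL GM-CSF for 4 h or for 24 h. CIS, the product of Cish, is a SOCS family protein that restrains cytokine signalling, and GM-CSF is a cytokine that activates neutrophils. The labels' treatment text gives 42 h where titles and the extraction text give 24 h, and 24 h is used here. Every cultured group received GM-CSF, so effects of the cytokine and of time in culture cannot be told apart. The labels do not give the make of the CIS-/- allele or say that the 3 libraries of a group came from separate mice, so p-values measure the spread between these libraries, which may be technical.

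Totals ran from 12170524 to 22539858 counts per library, of which the members held between 0.141% and 0.189%. The targeted gene goes against its label before stimulation. Cish measured 6.48 to 6.52 CPM in unstimulated WT and 17.9 to 20 CPM in unstimulated libraries labelled CIS-/-. After 4 h WT libraries reached 1138 to 1155 CPM and those labelled CIS-/- 237 to 243 CPM. After 24 h the ranges were 1056 to 1069 CPM in WT and 233 to 243 CPM. Whether the counted reads lie in the deleted part of the gene is not given, so groups are called by their labels. The summed level of 10 neutrophil markers was 108420 to 113150 CPM in unstimulated libraries and 33213 to 37926 CPM at 24 h, with none of them at 0. The 8 monocyte and macrophage markers summed at 24 h to 540 to 561 CPM in WT and 1008 to 1048 CPM in the libraries labelled CIS-/-. The 4 erythroid markers had sums that did not overlap between genotypes at any time: 29.6 to 32.7 CPM in WT and 82.7 to 83.8 CPM in the other genotype unstimulated, 22.2 to 26.2 and 56.3 to 82.4 CPM after 4 h, and 5.54 to 6.96 and 21.2 to 31.9 CPM after 24 h. The B cell, T and NK cell and dendritic cell lists reached at most 8.11 CPM in any library, and the list of eosinophil, basophil and mast cell markers lay between 15.3 and 64.1 CPM. The part of these marker differences in the results was not tested, and in bulk samples fewer cells of a type and less RNA per cell cannot be told apart. Replicate 1 labelled CIS-/- at 24 h stood apart from the others of its group, with a chi-square per degree of freedom of 7.498 and 9.317 against them, where other replicate pairs gave 1.29 to 3.06.

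Directions at 24 h depend on how libraries are scaled. The main scaling (TMM, which assumes that most genes do not change) gave WT libraries at 24 h a mean factor of 1.29 and those labelled CIS-/- 0.888, while the other groups lay between 0.912 and 1.04. With library sizes alone the median of all genes between these groups at 24 h was -0.55 on the log2 scale. CPM values below use TMM. Values without it are given for the named members whose call or direction it decides. A gene is called where edgeR's quasi-likelihood test gave an adjusted p under 0.05, and log2 fold changes carry their standard error.

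Levels within the particle were compared per length, as TPM (counts scaled to exon length and then to the library's own total). The core genes ranged from 18.2 TPM for Psma3 to 132 TPM for Psma6, a 7.25-fold spread of mean levels. The cap genes ranged from 16.8 TPM for Psmd3 to 92.8 TPM for the ubiquitin receptor Psmd4. Psmd1, a scaffold of the cap, was near Psmd3 at 16.99 TPM, and Psmd11 at 21.8 TPM was near Psmd6 at 21.5 TPM. The order within these pairs was not tested, since a range over all libraries includes the differences between groups. The chaperones were lower per length, from 1.73 TPM for Psmd9 to 5.56 TPM for Psmd5, apart from Psmd10 (gankyrin) at 47.6 TPM. Psmd5 and Psmd10 were closer by library total, at 13.8 and 23.6 CPM, with exon lengths of 7230 and 1469 bases. Among the regulators of the particle, the activator Psme2 was at 109 TPM and the inhibitor Psmf1 at 4.07 TPM. On this measure, subunits present in equal number in the particle had mRNA levels that differed several-fold within each ring. The spread depends on the exon lengths used, which pool all annotated transcripts of a gene. Psma6 and Psma3 had lengths of 1234 and 3894 bases, and means of 55.3 and 23.7 CPM by library total.

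The promoters of 5 members, picked by no rule and with the 24 h results known, are shown with motifs of 5 regulators marked. They are RefSeq stretches (GRCm38.p6) that end at the base before the start site, or for Psmb5 28 bases before it, and carry no exon of the annotation. Capitals mark any match on either strand to TGACNNNGC (antioxidant response element core), the CCAAT box (those letters), TTCNNNGAA (STAT palindrome), GAAANNGAA (interferon-stimulated response element core) or GGGCGG (GC box). Sequences are written 5′ to 3′ along the gene.
Psmb5, chr14:54618023-54618145, minus strand: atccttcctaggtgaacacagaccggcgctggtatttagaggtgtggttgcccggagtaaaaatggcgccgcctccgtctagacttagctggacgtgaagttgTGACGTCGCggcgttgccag
Psmb6, chr11:70525207-70525356, plus strand: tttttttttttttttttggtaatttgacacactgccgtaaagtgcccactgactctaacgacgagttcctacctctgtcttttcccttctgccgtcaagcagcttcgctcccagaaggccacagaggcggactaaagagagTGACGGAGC
Psmd14, chr2:61711544-61711693, plus strand: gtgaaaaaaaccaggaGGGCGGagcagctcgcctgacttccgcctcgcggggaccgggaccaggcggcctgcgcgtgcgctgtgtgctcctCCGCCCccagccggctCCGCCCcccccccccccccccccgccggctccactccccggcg
Psmd11, chr11:80428465-80428614, plus strand: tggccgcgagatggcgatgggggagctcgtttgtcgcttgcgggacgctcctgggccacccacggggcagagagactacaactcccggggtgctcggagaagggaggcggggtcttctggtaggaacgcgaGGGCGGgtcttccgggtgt
Psmf1, chr2:151741311-151741460, minus strand: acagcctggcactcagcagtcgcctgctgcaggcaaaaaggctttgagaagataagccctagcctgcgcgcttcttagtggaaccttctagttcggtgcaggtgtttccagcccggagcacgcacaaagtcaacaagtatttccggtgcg

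The antioxidant response element core lies 47 bases before the start of Psmb5 and 9 bases before that of Psmb6, while the stretches of Psmd14 and Psmd11 hold GC boxes and that of Psmf1 no match. Over the whole window, from 250 bases before to 50 after the start, 36 of the 42 members had a promoter in the RefSeq table. That element was found in 16.7% of them, against 14% of all 27025 promoters of the table. Besides Psmb5 and Psmb6 it matched in Psmc6, Psmd9, Psmd12 and Psme4, whose promoters are not printed. A GC box was found in 58.3% of members and 71.4% of the 14 cap genes with a promoter, against 38.2% of all. CCAAT was found in 33.3% against 41.1%, the STAT palindrome in 5.56% against 9.55%, and the interferon element core in 16.7% against 9.76%. A match describes letters in the window and is not a binding site, and these motifs were not tested for enrichment.

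At 4 h with GM-CSF, 10 of 17 cap genes and 3 of 4 activators were called higher than before stimulation under each label. By library sizes alone the cap counts were 6 higher and 6 lower in WT, and 9 and 4 labelled CIS-/-. In WT libraries 23 of 42 members were called higher, against 38.1% of all 11569 genes tested, and 8 were called lower, against 38.2%. In libraries labelled CIS-/- 26 were higher, against 37.9% of all genes, and 5 lower, against 39.1%. Scaled by library size only, WT gave 17 and 13, against 31.3% and 45.9% of all genes, and the libraries labelled CIS-/- 22 and 10, against 32.7% and 45.2%. No member was called in the opposite direction (0), and the median of all genes then lay at -0.19 and -0.17. Each label's 4 h and 24 h comparisons share the same unstimulated libraries, so their values are set side by side and not correlated.

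In the lid, Psmd7, the partner of the deubiquitinase Psmd14, was at 9.36, 9.07 and 9.56 CPM in unstimulated WT libraries and at 21.3, 23.9 and 22.4 CPM at 4 h. In libraries labelled CIS-/- it was at 10.0, 9.07 and 7.80 CPM and then at 22.2, 23.2 and 22.0 CPM. No library at 4 h overlapped those before it, and the log2 fold change was 1.27 ± 0.09 in WT and 1.32 ± 0.09 labelled CIS-/- (SE, 3 libraries a group; edgeR, adjusted p = 1.93e-20 and 6.34e-21). Psmd11, the lid subunit that ties cap to core, went from 27.0 ± 0.39 to 53.6 ± 0.52 CPM in WT and from 24.3 ± 0.81 to 57.7 ± 3.7 CPM labelled CIS-/- (SD, n = 3). The scaffold Psmd1 went from 26.4 ± 1.0 to 52.9 ± 2.7 CPM and from 23.6 ± 1.2 to 50.1 ± 2.6 CPM. The ATPase with the largest change was Psmc2, with log2 fold changes of 0.55 ± 0.06 and 0.69 ± 0.06. Of the 17 cap genes 10 rose under each label, against 38.1% of all genes in WT and 37.9% labelled CIS-/-. In WT 3 fell (Psmc4, Psmc6 and Psmd14), against 38.2%, and labelled CIS-/- 1 fell (Psmc4), against 39.1%. Labelled CIS-/-, Psmc6 and Psmd14 were also called lower with library sizes, at -0.24 and -0.15.

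The core moved less evenly. In WT 6 of 14 core genes rose and 3 fell, against 38.1% and 38.2% of all genes. Labelled CIS-/- 9 rose and 2 fell, against 37.9% and 39.1%. By library sizes these were 4 and 4 in WT, against 31.3% and 45.9% of all genes. Labelled CIS-/- they were 6 and 4, against 32.7% and 45.2%. Psma5 of the alpha ring rose most, from 8.43 ± 0.74 to 17.6 ± 1.2 CPM in WT and from 7.26 ± 0.69 to 18.3 ± 0.62 CPM labelled CIS-/-. Psmb3 of the beta ring fell most, from 35.9, 42.4 and 39.3 CPM to 21.4, 22.0 and 20.1 CPM in WT, with no overlap. Labelled CIS-/- it went from 38.0, 39.7 and 38.7 CPM to 20.9, 21.3 and 19.6 CPM, a log2 fold change of -0.91 ± 0.07 (edgeR, adjusted p = 1.64e-18). Psma1 fell as well, by 0.68 and by 0.48 on the log2 scale. Of the catalytic subunits, Psmb7 rose by 0.52 ± 0.06 and 0.59 ± 0.06, and its exons overlap those of Nek6 on the other strand over 11.8% of its length, and whether counting used strand is not stated. Psmb5 and Psmb6 did not pass the test in WT, at 0.13 ± 0.10 and 0.09 ± 0.08, and passed it labelled CIS-/-, at 0.40 ± 0.10 and 0.18 ± 0.08, though Psmb6 was at 0.04 and not called with library sizes alone. That difference between labels did not pass the interaction test for either gene (edgeR, adjusted p = 0.231 and 0.652).

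Among activators, Psme2, which forms the PA28 ring with Psme1, rose from 50.3 ± 1.5 to 121 ± 4.8 CPM in WT and from 51.0 ± 2.2 to 118 ± 3.4 CPM labelled CIS-/-. Psme1 rose by 0.57 ± 0.05 and 0.42 ± 0.05 on the log2 scale, and Psme4, the nuclear activator PA200, by 0.54 ± 0.04 and 0.80 ± 0.04. Psme3, the nuclear PA28 homologue, fell by 0.22 and 0.30. Psme2b rose by 0.95 ± 0.13 and 1.12 ± 0.14. The inhibitor Psmf1 rose from 7.85 ± 0.77 to 11.3 ± 0.17 CPM in WT and from 7.88 ± 0.37 to 10.7 ± 0.78 CPM labelled CIS-/-. Of the 5 chaperones, Psmd10 and Psmg3 rose and Psmg1 fell under each label. Psmd10 had log2 fold changes of 0.46 ± 0.07 and 0.69 ± 0.07, Psmg3 of 0.52 ± 0.15 and 0.82 ± 0.16, and Psmg1, with 440 counts in all libraries together, of -0.80 ± 0.29 and -0.72 ± 0.31.

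**Figure D1:**
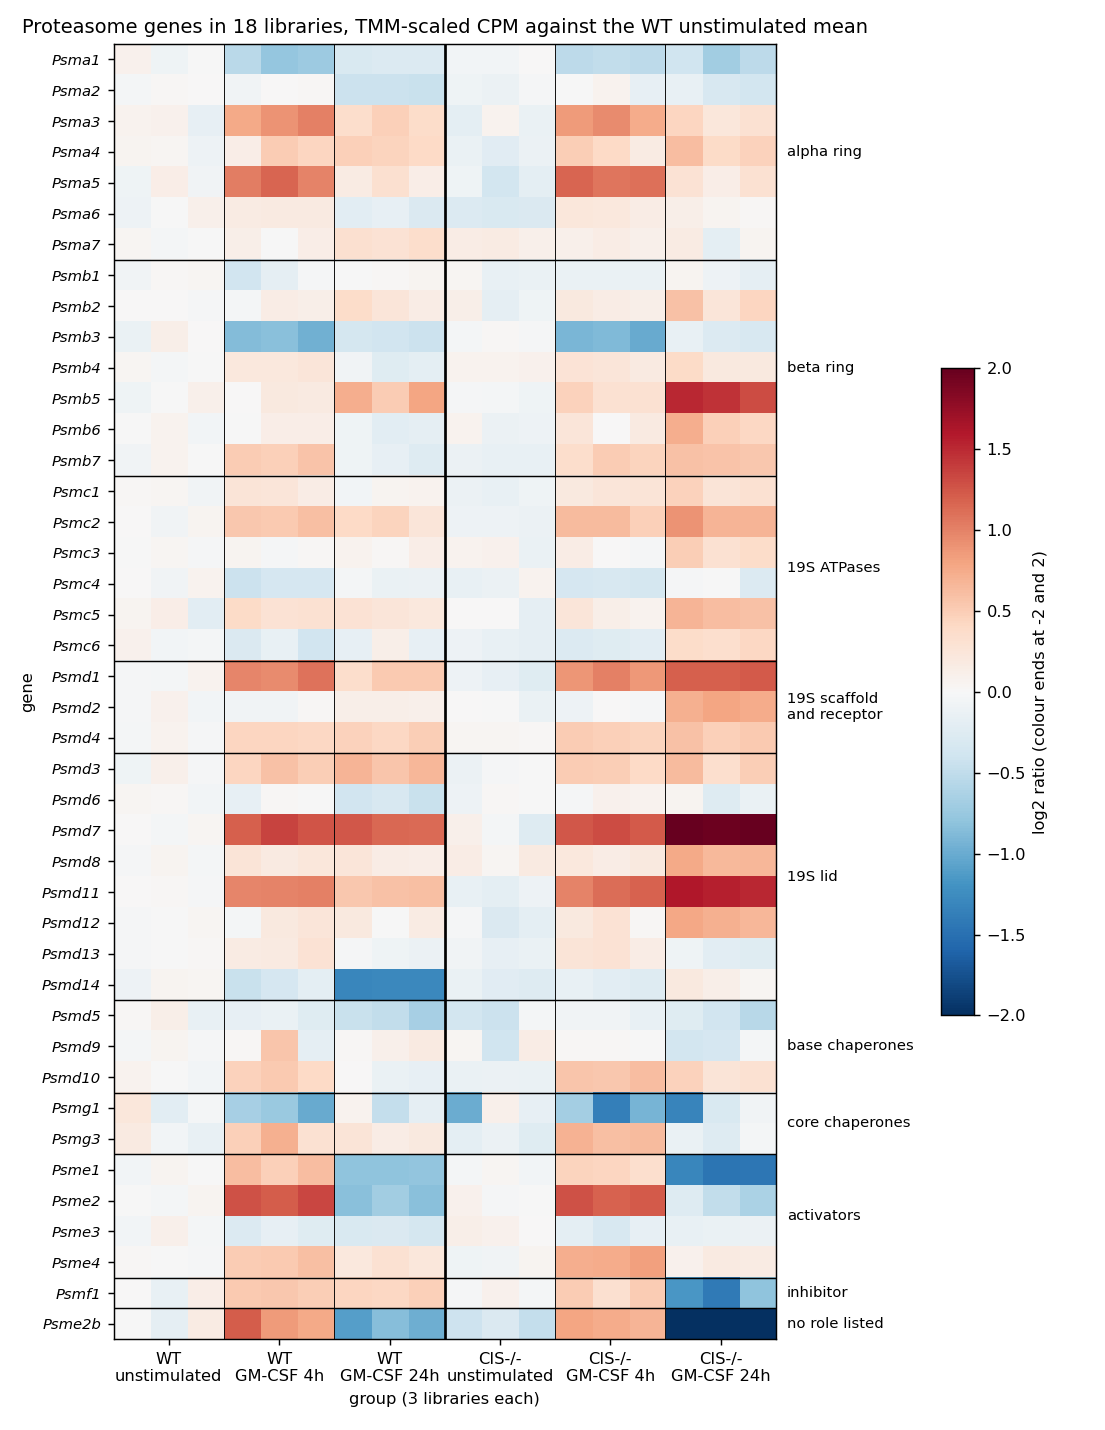
Every member (rows, grouped by role) in each of the 18 libraries (columns), as the log2 ratio of its TMM-scaled CPM to the mean of the 3 unstimulated WT libraries; red is higher and blue lower. At 4 h the columns of both labels look alike, and at 24 h Psmd14 is blue in WT only, while in the libraries labelled CIS-/- Psmb5, Psmd7 and Psmd11 are darkest red and Psmf1 is blue; Psme1 is blue under both labels.

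After 24 h in WT the picture depended on the scaling. Relative to unstimulated libraries 17 members were higher, against 40.7% of all genes, and 14 lower, against 37.7%, but TMM-free counts were 29 and 6, against 54.9% and 27.3% of all genes, whose median then lay at 0.36. Against 4 h, 10 members were higher (35.7% of all genes) and 21 lower (39.6%), but the TMM-free counts were 26 and 6, against 58.5% and 21.7% of all genes, with that median at 0.45. Of the calls against unstimulated, 14 higher and 6 lower held under every alternative run, among them higher Psmd7, Psmd3, Psmb5 and Psmd11 and lower Psmd14, Psme1, Psme2 and Psmd5.

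Psmd14, the lid's deubiquitinase, showed the largest fall of any listed subunit in WT. The unstimulated WT libraries had 26.3, 29.2 and 29.1 CPM of it. Those of 4 h had 20.7, 22.4 and 24.8 CPM, and those of 24 h had 11.41, 11.54 and 11.48 CPM. The WT libraries at 24 h lay below all others, with a log2 fold change of -1.30 ± 0.07 against unstimulated (edgeR, adjusted p = 2.17e-24). In the same lid, Psmd7 stayed at 21.1 ± 0.87 CPM, 1.17 ± 0.08 above unstimulated on the log2 scale, and Psmd3 was 0.63 ± 0.07 above it. Psmb5 was at 15.97, 13.77 and 16.58 CPM at 24 h in WT, above every unstimulated and 4 h WT library, a log2 fold change of 0.66 ± 0.09. Psmb6 and Psmb7 were called lower than unstimulated, by -0.16 ± 0.07 and -0.17 ± 0.06, but at 0.15 and 0.14 with library sizes alone. Psme1 and Psme2 fell below their unstimulated level, to 41.9 ± 0.23 and 29.1 ± 1.6 CPM, log2 fold changes of -0.80 ± 0.05 and -0.78 ± 0.06. Psme2b fell by 0.97 ± 0.15. Psme3 fell by 0.31 ± 0.05 with TMM and was not called with library sizes alone, at -0.0039. Psme4 at 0.25 ± 0.04 and Psmf1 at 0.43 ± 0.10 were higher than unstimulated. Elsewhere in the particle, Psma4 of the alpha ring (0.45 ± 0.08), the ATPase Psmc2 (0.37 ± 0.06) and the scaffold Psmd1 (0.46 ± 0.06) were higher, and the base chaperone Psmd5 was lower (-0.52 ± 0.09).

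Between 4 h and 24 h in WT, Psme2 fell by 2.05 ± 0.05 on the log2 scale, Psme2b by 1.92 ± 0.14, Psme1 by 1.36 ± 0.05 and Psmd14 by 0.98 ± 0.08. These calls and the falls of Psma5 (-0.85 ± 0.09) and Psmb7 (-0.69 ± 0.05) held under every alternative run. Psmb5 (0.53 ± 0.09), Psmb3 (0.50 ± 0.07) and the ATPase Psmc4 (0.27 ± 0.07) rose, and these also held. Psmg1, a core chaperone, rose by 0.60 ± 0.28, with an edgeR adjusted p = 0.0486. The remaining named members depended on the scaling. Psmd1 at -0.53 ± 0.06 and Psmd10 at -0.56 ± 0.07 were called lower with TMM, and stood at -0.05 and -0.07, not called, with library sizes. Psmb6 at -0.25 and Psme4 at -0.29 turned to 0.23 and 0.20 with library sizes. Psme3 and Psmf1, not called with TMM at -0.09 and -0.08, stood at 0.39 and 0.41 with library sizes.

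After 24 h in libraries labelled CIS-/- most of the cap and all 3 catalytic constitutive subunits were higher than before stimulation. There 25 members were called higher, against 42.1% of all genes, and 8 lower, against 42.0%. Without TMM the counts were 22 and 14, against 36.7% and 47.8%. Of the 17 cap genes 14 rose and 0 fell with TMM, while 13 rose and 3 fell with library sizes alone. Against 4 h, 17 members were higher (37.8% of all genes) and 13 lower (37.9%), 12 of the 17 cap genes among the higher and 1 (Psmd13) among the lower. In that comparison Psmb5 (1.05 ± 0.09), Psmd2 (0.78 ± 0.05), Psmd7 (0.73 ± 0.07) and Psmc6 (0.62 ± 0.07) rose most on the log2 scale. Lowest were Psme2b (-3.01 ± 0.19), Psme1 (-1.81 ± 0.06), Psme2 (-1.69 ± 0.06) and Psmf1 (-1.48 ± 0.13), followed by Psma5 (-0.86 ± 0.09), Psmg3 (-0.76 ± 0.16) and Psme4 (-0.62 ± 0.04). Psmd7 reached 38.9, 36.4 and 37.0 CPM, a log2 fold change of 2.06 ± 0.08 against unstimulated (edgeR, adjusted p = 1.69e-32). Psmd11 reached 81.7, 79.3 and 76.7 CPM, 1.70 ± 0.06 on the same scale, and Psmd1 60.4, 60.6 and 61.6 CPM, 1.37 ± 0.06. None of these overlapped the unstimulated or 4 h libraries of the same label.

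Psmb5 measured 9.49, 9.39 and 9.09 CPM in unstimulated libraries labelled CIS-/- and 13.3, 11.9 and 11.9 CPM after 4 h. After 24 h it measured 27.4, 26.1 and 23.9 CPM, above every earlier library, a log2 fold change of 1.46 ± 0.09. Psmb6 and Psmb7 rose by 0.58 ± 0.07 and 0.71 ± 0.06 over the same time. In contrast to WT, the inhibitor Psmf1 fell, from 7.73, 8.31 and 7.61 CPM to 3.49, 2.94 and 4.50 CPM, a log2 fold change of -1.05 ± 0.14. Psme1 fell by 1.39 ± 0.06, Psme2 by 0.49 ± 0.06 and Psme3 by 0.20 ± 0.05. Psme4 was called higher with TMM, at 0.17 ± 0.05, and not called with library sizes alone, at -0.0084. Psma4 (0.65 ± 0.09), Psmc2 (0.86 ± 0.06) and Psmd10 (0.47 ± 0.07) had the largest called changes of the alpha ring, the ATPases and the base chaperones, and all 3 were higher. Psme2b fell by 1.89 ± 0.22, to between 0.644 and 1.24 CPM.

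**Figure D2:**
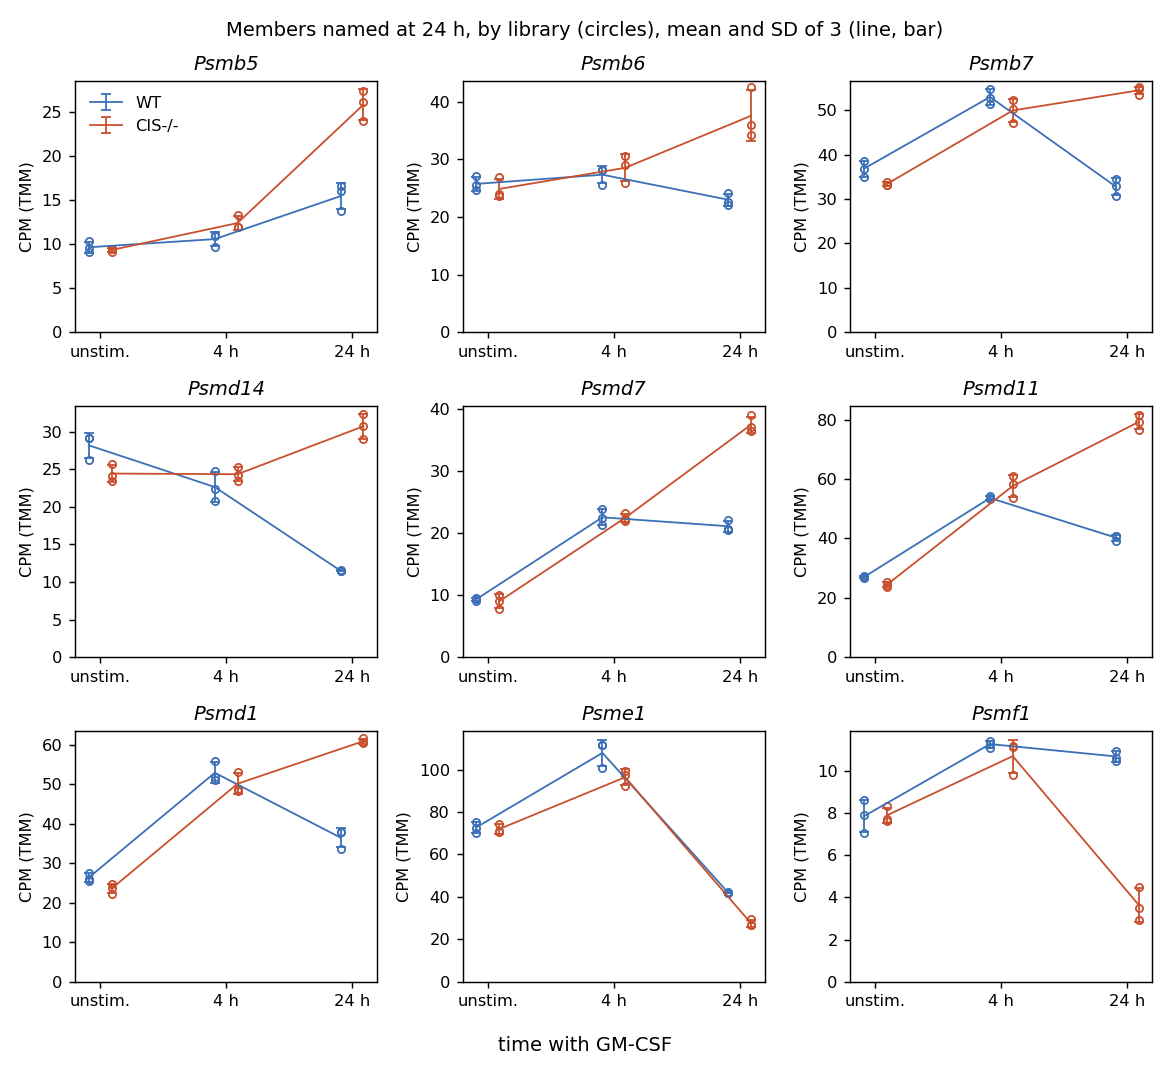
TMM-scaled CPM (vertical axes, from 0) of 9 members by time with GM-CSF in WT (blue) and in libraries labelled CIS-/- (red); circles are libraries, lines join means and bars are SD of 3. The labels overlap or nearly so until 4 h and part at 24 h, Psmd14 by 11.48 against 30.7 CPM and Psmf1 by 10.7 against 3.65 CPM.

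Between genotypes, few members were called different with TMM before stimulation and at 4 h. Unstimulated, 1 member was called higher in libraries labelled CIS-/- (Psmd8, log2 fold change 0.13 ± 0.05, and 0.087, not called, with library sizes), against 12.9% of all genes. Lower were 4 (Psma6, Psmd5, Psmd14 and Psme2b), against 9.41% of all genes. Without TMM the counts were 0 and 10, against 10.1% and 14.3% of all genes. Only the lower call of Psma6, at 55.5 ± 3.7 CPM in WT and 45.5 ± 0.67 CPM labelled CIS-/-, held under every alternative run. At 4 h, 1 was higher (Psme4, 0.22 ± 0.04), against 8.0% of all genes, and 1 lower (Psme1, -0.16 ± 0.05), against 9.30%. Psme4 was at 117, 118 and 124.2 CPM in WT and at 137, 137 and 145 CPM labelled CIS-/-, with no overlap. The catalytic Psmb5, Psmb6 and Psmb7 did not pass the test at either time, with log2 differences between -0.14 and 0.22. With library sizes alone Psmb7 was called lower unstimulated, at -0.18.

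At 24 h most members were called different between genotypes, as were most genes tested. With TMM 24 of 42 members were higher in libraries labelled CIS-/-, against 38.2% of all genes, and 6 lower, against 38.1%. By library sizes 8 were called higher and 30 lower, against 22.1% and 60.5% of all genes under that scaling, and 12 members were called in opposite directions by the 2 scalings. Under every alternative run 8 stayed higher: the catalytic Psmb5, Psmb6 and Psmb7, the scaffolds Psmd1 and Psmd2, and the lid subunits Psmd7, Psmd11 and Psmd14. Lower under every alternative were 5: Psma1, Psma7, Psme1, Psme2b and Psmf1. Without replicate 1 labelled CIS-/-, which stood apart, TMM gave 21 higher and 8 lower, and without the 6 unstimulated libraries 21 and 10.

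Psmd14 differed most, at 11.41, 11.54 and 11.48 CPM in WT against 32.4, 30.7 and 29.1 CPM labelled CIS-/-. The groups did not overlap, and the log2 fold change was 1.41 ± 0.07 with TMM and 0.88 with library sizes alone (edgeR, adjusted p = 5.78e-26 with TMM). Psmd11, at 40.2 ± 1.0 CPM in WT and 79.2 ± 2.5 CPM labelled CIS-/-, differed by 0.97 ± 0.05, and Psmd7, at 21.1 ± 0.87 and 37.4 ± 1.3 CPM, by 0.83 ± 0.06. Psmd1 and Psmd2 differed by 0.74 ± 0.05 and 0.63 ± 0.04. Among catalytic subunits Psmb5 was at 15.4 ± 1.5 CPM in WT and 25.8 ± 1.7 CPM labelled CIS-/-, a difference of 0.74 ± 0.08 with TMM and 0.21 with library sizes. Psmb6 differed by 0.70 ± 0.07 and 0.17, and Psmb7 by 0.73 ± 0.05 and 0.20, under the same scalings. The ATPase with the largest difference was Psmc6, at 0.43 ± 0.06 with TMM and -0.10 with library sizes, where it did not pass the test.

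The inhibitor Psmf1 was the member lowest against WT, at 10.6, 10.5 and 10.9 CPM in WT and 3.49, 2.94 and 4.50 CPM labelled CIS-/-, a log2 difference of -1.49 ± 0.12 (edgeR, adjusted p = 4.82e-17) and -2.02 with library sizes alone. Psme1 differed by -0.61 ± 0.06 and Psme2b by -1.31 ± 0.23. Psme2, the partner of Psme1, was called higher with TMM, at 0.31 ± 0.06, and lower with library sizes, at -0.22. Psme3 behaved likewise, at 0.18 ± 0.05 and -0.35, whereas Psme4 was lower under both, at -0.11 ± 0.04 and -0.64. Of the chaperones Psmd10 was called higher with TMM, at 0.44 ± 0.07, and not called with library sizes, at -0.09.

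Within the alpha ring Psma7 differed by -0.29 ± 0.05 and Psma1 by -0.25 ± 0.06, while the catalytic beta subunits of the same barrel were higher. The ring as a whole was mixed with TMM. Of its 7 genes 2 were called higher, 2 lower and 3 not called, with a median of 0.03, against 38.2% higher and 38.1% lower of all genes. With library sizes alone all 7 were called lower, against 60.5% of all genes. The contrast between the named genes does not rest on the scaling between libraries. Set against the median member, Psmd14 differed by 1.23 on the log2 scale between labels at 24 h, Psmd11 by 0.80, Psmd7 by 0.65 and Psmb5 by 0.56. On the same measure Psmb7 stood at 0.55, Psmb6 at 0.52, Psma1 at -0.43, Psma7 at -0.47, Psme1 at -0.79 and Psmf1 at -1.67.

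**Figure D3:**
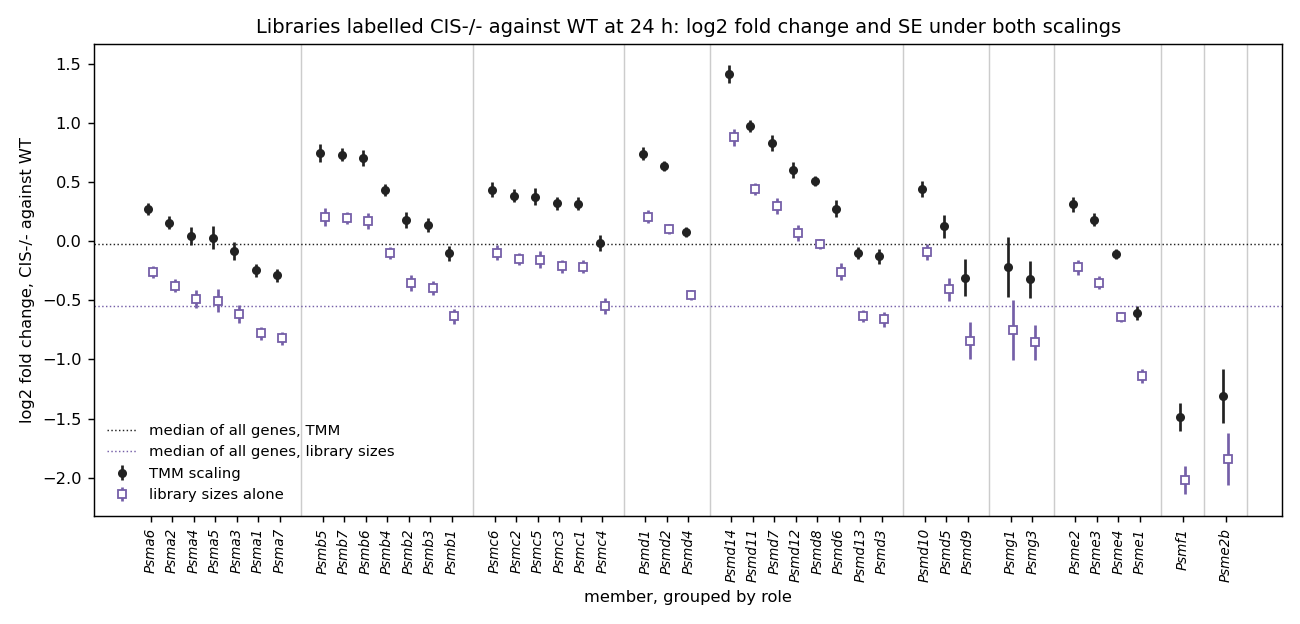
Log2 fold change of each member between libraries labelled CIS-/- and WT at 24 h (vertical axis, bars are SE), grouped by role, with TMM scaling (filled black circles) and with library sizes alone (open purple squares); dotted lines are the medians of all genes. The 2 scalings differ by a near-constant step, and only Psmb5, Psmb6, Psmb7, Psmd1, Psmd2, Psmd7, Psmd11 and Psmd14 are called higher under both.

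Time courses that differed between genotypes were called for members, as they were for many other genes. The interaction of label and time at 4 h was called for 4 members in the higher direction (Psma6, Psmd11, Psmd14 and Psme4), against 5.32% of all genes, and 0 in the lower, against 10.4%. Of those 4, Psma6 and Psme4 held under every alternative run. At 24 h it was called higher for 22 members, against 31.6% of all genes, and lower for 5, against 33.1%, but for 9 and 21 with library sizes alone, against 17.5% and 53.4% of all genes. These interactions share the unstimulated libraries, where Cish goes against the label. Psmd14 had the largest, 1.62 ± 0.10, from a fall in WT and a log2 fold change of 0.32 ± 0.07 labelled CIS-/-, which was 0.14 and not called with library sizes alone. Those of Psmd11 (1.12 ± 0.08), Psmd1 (0.90 ± 0.09), Psmb7 (0.87 ± 0.08), Psmb5 (0.79 ± 0.13) and Psmb6 (0.75 ± 0.10) held their sign and call with library sizes alone. Psmf1 had the largest in the other direction, -1.49 ± 0.17.

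The inducible subunits, which the member rule left out, were lower labelled CIS-/- than in WT at 24 h, where Psmb5, Psmb6 and Psmb7 were higher. Psmb8, the counterpart of Psmb5, went from 76.1 ± 1.8 to 218 ± 6.8 and 40.6 ± 1.2 CPM in WT, and from 72.6 ± 5.7 to 194 ± 6.8 and 13.03 ± 2.5 CPM labelled CIS-/-. Psmb9, the counterpart of Psmb6, ended at 25.7, 24.5 and 23.5 CPM in WT and at 3.57, 3.49 and 2.95 CPM labelled CIS-/-, a log2 difference of -2.91 ± 0.10 (edgeR, adjusted p = 1.41e-35). Its exons overlap those of Tap1 on the other strand over 5.8% of its length. Psmb10, the counterpart of Psmb7, was at 8.31 ± 0.46 and 3.47 ± 0.31 CPM at 24 h, after 47.4 ± 3.1 and 45.1 ± 2.1 CPM at 4 h. All 3 were lower labelled CIS-/- at 24 h with library sizes alone too, at -2.18, -3.44 and -1.77.

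The share of the inducible gene in each pair, taken per length within a library, does not depend on the scaling between libraries. Psmb8 held 67.7% ± 1.1 of the Psmb8 and Psmb5 sum in unstimulated WT, 84.6% ± 0.70 at 4 h and 41.2% ± 3.1 at 24 h (SD, n = 3). Labelled CIS-/- it held 67.4% ± 1.3, 80.6% ± 0.85 and 11.8% ± 1.6. For Psmb9 and Psmb6 the share went from 56.3% ± 0.90 over 65.0% ± 0.98 to 35.3% ± 0.76 in WT, and from 55.3% ± 2.4 over 61.6% ± 2.6 to 4.36% ± 0.33 labelled CIS-/-. For Psmb10 and Psmb7 it went from 34.0% ± 1.9 over 64.2% ± 0.92 to 33.8% ± 2.3 in WT, and from 35.1% ± 0.49 over 64.4% ± 1.7 to 11.3% ± 0.89 labelled CIS-/-. At 24 h the 3 libraries of each label lay apart for each pair, by more than the SD. With 3 libraries against 3 an exact permutation test cannot go below p = 0.1, so these shares carry no test. The percentages also depend on the exon lengths used: without length scaling the Psmb8 share at 24 h was 72.4% and 33.4%.

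**Figure D4:**
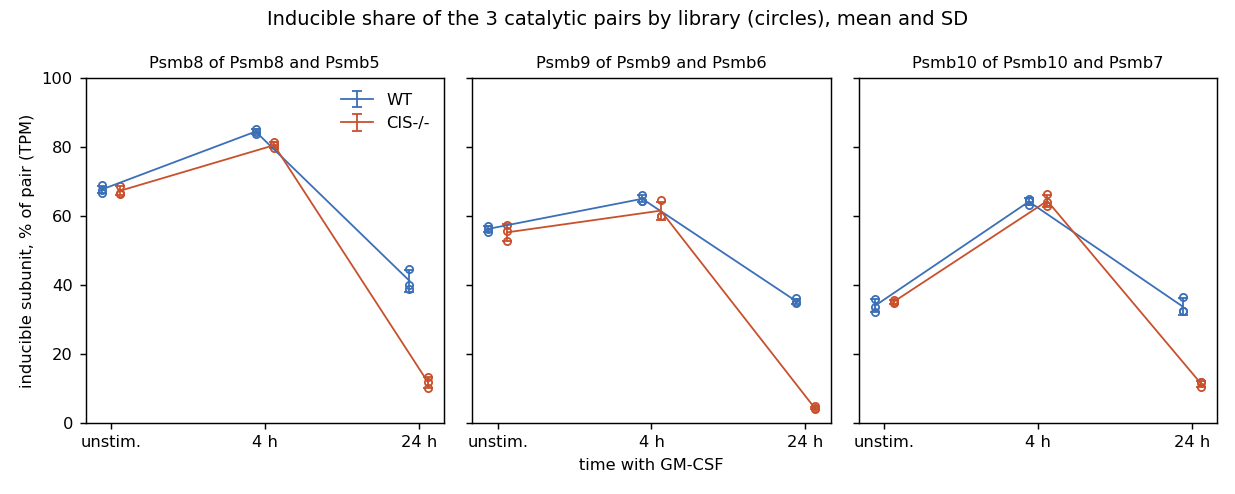
Share of the inducible gene in the summed TPM of each catalytic pair (percent, vertical axis) by time with GM-CSF in WT (blue) and in libraries labelled CIS-/- (red); circles are libraries and bars SD of 3. The shares peak at 4 h under both labels and at 24 h are lower labelled CIS-/-, 11.8%, 4.36% and 11.3% against 41.2%, 35.3% and 33.8% in WT.

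Summed over members, the constitutive core genes and the cap genes did not keep their ratio. The core sum leaves out Psmb8, Psmb9 and Psmb10, whose shares of their pairs changed with time and label. It is therefore not the sum of all core subunits, and a ratio that includes them was not computed. The core genes summed to 595 ± 8.6, 678 ± 12 and 968 ± 17 TPM in WT (unstimulated, 4 h and 24 h) and to 561 ± 8.9, 694 ± 8.7 and 743 ± 22 TPM labelled CIS-/-. The cap genes summed to 524 ± 7.0, 657 ± 4.0 and 963 ± 6.9 TPM, and to 502 ± 3.8, 660 ± 1.2 and 819 ± 4.5 TPM. On this scale, which is relative to each library's total, both sums at 24 h were higher in WT. The ratio of cap to core, which is free of that total, was 0.879 ± 0.018 in unstimulated WT and 0.894 ± 0.0093 labelled CIS-/-. At 4 h it was 0.969 ± 0.011 in WT and 0.952 ± 0.011 labelled CIS-/-. At 24 h it was 0.981, 0.995 and 1.01 in WT and 1.07, 1.13 and 1.11 labelled CIS-/-, with no overlap. The activators and the inhibitor together rose from 239 ± 4.4 to 418 ± 12 TPM at 4 h in WT and were at 279 ± 5.6 TPM at 24 h. Labelled CIS-/- they went from 238 ± 1.3 over 403 ± 11 to 175 ± 3.1 TPM.

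Members of 1 part differed in how alike their patterns were. Pearson's r of each gene's log2 CPM with the mean of the other genes of its part, over the 18 libraries, had a median of 0.82 in the cap and 0.44 in the core. It was 0.28 in the chaperones and 0.61 among activators and inhibitor. In the cap r was highest for Psmd11, at 0.96, and lowest for Psmc4, at -0.37. In the core it ran from 0.77 for Psmb7 to -0.66 for Psmb3 and -0.81 for Psma1. Of genes outside the list, the 10 most like the mean of the core were 1810058I24Rik, Vps26c, Gm44062, Dmkn, Snx3, Sar1b, Sec22b, Gabarap, Pias4 and Ap2m1, with r from 0.92 to 0.94. Gm44062 and Dmkn had low means of 0.58 and 0.46 CPM. Libraries of a group share their treatment, so these values of r describe the 18 libraries and carry no p. They also rest on TMM. The core's group means lay only between -0.14 and 0.14 on the log2 scale. That range is narrower than the gap between the mean log2 TMM factors at 24 h, 0.36 in WT and -0.17 labelled CIS-/-. The values of r and the genes most like the core were not computed with library sizes alone.

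Genes that serve the particle were taken from 3 lists of partners, regulators and ubiquitin enzymes. Their counts stand against 38.2% of all genes higher and 38.1% lower with TMM, and 22.1% and 60.5% with library sizes. Of 19 partners matched, 11 were higher and 7 lower labelled CIS-/- at 24 h with TMM, and 4 and 13 with library sizes alone. Pomp, the chaperone that matures the core, was at 17.78 CPM in WT and 47.9 CPM labelled CIS-/- on average, a log2 difference of 1.43 with TMM and 0.90 with library sizes. In WT it had fallen by 0.81 from its unstimulated level. The cap's ubiquitin receptor Adrm1 differed by 0.27 and the lid subunit Sem1 by 0.42 with TMM, and by -0.26 and -0.11 with library sizes. The largest differences among partners were those of Zfand2a (2.69), an arsenite-inducible proteasome-binding protein, Txnl1 (1.51) and Pithd1 (-2.57), which kept their sign with library sizes.

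Of the 16 regulators tested, 11 were higher and 1 lower labelled CIS-/- at 24 h with TMM, against 7 and 7 with library sizes. Nfe2l2, encoding NRF2, was at 190 CPM in unstimulated WT, 502 at 4 h and 306 at 24 h, and at 173, 515 and 882 CPM labelled CIS-/-. Its difference at 24 h was 1.53 with TMM and 0.996 with library sizes. Nfe2l1, encoding NRF1, differed by 0.41 with TMM and -0.12 with library sizes, and Ddi2, the protease that activates NRF1, was lower under both, at -0.47 and -1.005. The largest differences were in the small Maf genes, whose products pair with NRF1 and NRF2: Maff, at 17.4 CPM in WT and 571 CPM labelled CIS-/-, differed by 5.04 and Mafk by 2.64. Of 22 ubiquitin and ubiquitin enzyme genes, 13 were higher and 5 lower with TMM and 5 and 10 with library sizes. Rps27a, a ubiquitin and ribosomal protein fusion, differed by -1.22 and Ube2n, a conjugating enzyme, by 1.02.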

How the data were processed

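The authors deposited whole-number read counts per Ensembl gene for 18 libraries. The submitters' processing notes name mm10, Trimmomatic, STAR and featureCounts, with no version; the annotation and strand setting behind the counts are not stated in the labels. Names, coordinates and union exon lengths came from GENCODE mouse release M21 (GRCm38), which named 53274 of 53379 gene rows. No column of the table was left unused (0).

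Genes passing filterByExpr by group (11569, holding 99.9% of counts) were fitted in edgeR 4.0.16 (R 4.3.3) with TMM factors and 1 robust quasi-likelihood model of 6 groups. The 11 contrasts were tested two-sided and adjusted by Benjamini-Hochberg over all genes. All 42 members passed the filter. Adjusted p under 0.05 is called. Each standard error is the log2 fold change divided by the root of F. CPM use TMM-scaled library sizes, except for the limit of 1 CPM. The fit was checked on simulated data in which few genes changed, in 1 group only. That check does not cover the scaling at 24 h, where most genes were called.

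The members, roles, lists and naming rule were chosen with earlier results of these data known. In each comparison the rule names the 3 highest and 3 lowest called members, the largest called change in each role, and the catalytic subunits, activators and inhibitor throughout. TPM were computed here from counts and union exon lengths. Of each pathway list the rule names the 3 largest called changes, with Pomp, Adrm1, Sem1, Nfe2l1, Nfe2l2 and Ddi2. Members that a comparison names outside this rule, such as Psma1 or Psmd2 at 24 h, were named after their values were seen. Of the partners Paaf1 and AI314180 were not matched. Replicate numbers did not pair libraries: over 27 same-numbered pairs the correlation of deviations lay between -0.059 and 0.050. Depth limits precision through counting error for low genes such as Psmg1. Protein sequences were not used here. A few single-gene values that the rules would name are not reported here.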

Additional observations from a re-analysis of the deposited data

Results flagged for a closer look

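The change with GM-CSF differed between WT and libraries labelled CIS-/- for 17 results of members named here, by the interaction term of the edgeR fit (log2 scale, labelled CIS-/- minus WT). At 4 h these were Psma6 (0.31), Psmd11 (0.25), Psmd14 (0.31) and Psme4 (0.26), of which Psma6 and Psme4 were called under every alternative run. At 24 h they were Psma6 (0.57), Psmb5 (0.79), Psmb6 (0.75), Psmb7 (0.87), Psmc6 (0.58), Psmd1 (0.90), Psmd10 (0.57), Psmd11 (1.12), Psmd14 (1.62) and Psme2 (0.29). Of these, Psme2 turned to -0.20 with library sizes in place of TMM, and Psma6, Psmc6 and Psmd10 were then not called, at 0.07, 0.09 and 0.08. In the other direction at 24 h were Psme1 (-0.59), Psme2b (-0.91) and Psmf1 (-1.49). All 17 use the unstimulated libraries, where Cish goes against the label, and the part of that in these values was not tested.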

How the results depend on the processing

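Scaling changed more counts than any other choice tried. With library sizes in place of TMM, members called lower at 4 h against unstimulated were 13 in WT and 10 labelled CIS-/-. For WT at 24 h, 29 were higher and 6 lower against unstimulated, and 26 and 6 against 4 h; labelled CIS-/-, 14 were lower at 24 h against unstimulated. Between genotypes, 0 were higher and 10 lower unstimulated and 8 and 30 at 24 h, and the 24 h interaction called 9 and 21. Log2 values that turned were, for WT at 24 h against unstimulated, Psmb6 (0.15) and Psmb7 (0.14), and against 4 h Psmb6 (0.23), Psme3 (0.39), Psme4 (0.20) and Psmf1 (0.41). Labelled CIS-/- at 24 h Psme4 turned (-0.0084), between genotypes at 24 h Psmc6 (-0.10), Psmd10 (-0.090), Psme2 (-0.22) and Psme3 (-0.35), and in the 24 h interaction Psme2 (-0.20) and Psme3 (-0.38). RLE factors called 2 members higher between genotypes unstimulated and 2 at 4 h. No filter on low counts gave 0 higher unstimulated and 0 lower at 4 h, and the strict filter 2 higher at 4 h. Fitting compared groups only gave 2 higher and 8 lower unstimulated, 2 higher at 4 h and 7 higher in the 4 h interaction. DESeq2 called 1 lower unstimulated. Without the 6 unstimulated libraries 10 were lower at 24 h, and with members of at least 10 CPM 3 were lower in the 24 h interaction. The cause of these changes was not tested.

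Replicate numbers did not pair the libraries, with 0 of 27 pairs over a correlation of 0.1. The replicate block gave 2 members higher between genotypes at 4 h, where 1 was called without it. Leaving out 1 library at a time gave 0 to 1 higher and 1 to 3 lower between genotypes unstimulated, 1 to 2 and 0 to 1 at 4 h, and 2 to 4 and 0 to 1 in the 4 h interaction. Of the single-gene values, 1062 kept direction and call when 1 library was left out, 58 lost the call, 2 gained it and 0 turned; under the other alternatives these were 1131, 31, 4 and 13. Low counts limit Psmg1 most.

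Without length scaling the share of Psmb8 was 88.8%, 95.4% and 72.4% in WT (unstimulated, 4 h, 24 h) and 88.6%, 94.0% and 33.4% labelled CIS-/-. That of Psmb9 was 71.6%, 78.4% and 51.6%, and 70.7%, 75.8% and 8.18%. That of Psmb10 was 20.4%, 47.2% and 20.3%, and 21.2%, 47.5% and 5.99%.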
